A study of Mus musculus with 6 samples.

Results

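The piRNA pathway and Tudor domain genes followed here are Piwil2, Piwil4, Mael, Asz1, Tdrd1, Tdrd5, Tdrd9, Tdrd12, Rnf17 and Mov10l1, 10 of the 19937 genes that the arrays measured. They were chosen by symbol, and each had 1 probe set that the platform annotation maps to that gene alone. CD1 mouse embryos of stage E11.5 (E, embryonic day) gave the cells, taken from the AGM region, which holds the aorta, the gonads and the mesonephros. The cells were sorted as positive for CD31, an antigen found on endothelium but not only there. They were also sorted as negative for CD45, found on leukocytes, and Ter119, found on red cells. Surface c-kit, the stem cell factor receptor, divided them into c-kit-positive and c-kit-negative populations, with 3 arrays for each. No treatment, transgene or mutation is named in the labels, and the title of every sample gives the time as T0. The replicates are called biological without saying how embryos were pooled, so the p-values below measure the spread between these arrays. All values are log2 RMA values, and differences are c-kit-positive minus c-kit-negative.

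PIWI proteins carry piRNAs, short RNAs of the germ line that match transposons, and with them cut transposon transcripts in the cytoplasm or direct methylation of transposon DNA in the nucleus. The arginines of PIWI proteins are dimethylated and then bound by Tudor domains, so Tudor proteins act as scaffolds that gather PIWI proteins, helicases and nucleases in granules beside mitochondria. At this stage of mouse development primordial germ cells, which carry c-kit, are in the genital ridges of the AGM region. The mouse pathway is best known from the later fetal testis, where Piwil4 acts in the nucleus of prospermatogonia.

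Most members were higher in c-kit-positive cells. Of the 10, 6 rose and none fell at an adjusted p under 0.05 (limma, Benjamini-Hochberg over all genes), where 2.71% of all genes rose and 4.7% fell. The risers were Asz1, Mael, Tdrd12, Rnf17, Tdrd5 and Mov10l1, between 2.36-fold and 4.04-fold. The median difference of the members was 1.30 on the log2 scale, beside 0.07 over all genes, and all 10 differences were positive, as were 61.1% over all genes. The arrays of the populations did not overlap for 8 members, each higher in c-kit-positive cells, as was so for 16.2% of all genes, and 0 members lay lower without overlap, where 10.6% of all genes did. Piwil2 missed the threshold narrowly, while the intervals of Tdrd1, Tdrd9 and Piwil4 included 0. A fit without variance moderation called 2 of the 10, Rnf17 and Tdrd12. In bulk RNA, a larger share of cells that express a gene cannot be told apart from more RNA of it per cell.

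The genes of the sort were checked on every array. Kit, whose protein was sorted on, was at 9.53 to 9.59 in c-kit-positive and 8.19 to 8.27 in c-kit-negative cells. Pecam1, which encodes CD31, differed by -0.90. Ptprc, which encodes CD45, was at 8.37, 8.60 and 8.59 in c-kit-positive and 9.40, 8.66 and 8.21 in c-kit-negative cells (difference -0.24, adjusted p = 0.689, limma). On every array it lay above 7.04, the third quartile of the mean levels of all genes, although the cells were sorted as negative for CD45. Levels of different probe sets compare only roughly, and the part of CD45-positive cells in the members' values was not tested. Over all genes 540 rose and 937 fell. The count that rose became 276, 292 and 323 when c-kit-negative replicate 1, 2 or 3 was left out, and 310 and 287 when c-kit-positive replicate 1 or 3 was.

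Upstream sequence was taken for 8 members from RefSeq (GRCm38.p6), as the 250 bases before the transcript start, using the start farthest upstream where a gene had several. The arrays measure RNA and say nothing about binding at these sites. Asz1 and Tdrd12, the members with the largest and third-largest rise, are shown because they share a feature, Mael because it holds a pair of elements tied to the repression of germ line genes in somatic cells, and Tdrd9 as a member that did not pass the test. The windows are chr6:18109062-18109311 (minus strand), chr7:35537745-35537994 (minus strand), chr1:166238745-166238994 (minus strand) and chr12:111971309-111971558 (plus strand), written 5′ to 3′ on the gene's strand. Capitals mark TGCGCA, the core recognised by the factor NRF1, CACGTG, the E-box that MGA and MAX recognise, and TCCCGC, the E2F6 element.
Asz1: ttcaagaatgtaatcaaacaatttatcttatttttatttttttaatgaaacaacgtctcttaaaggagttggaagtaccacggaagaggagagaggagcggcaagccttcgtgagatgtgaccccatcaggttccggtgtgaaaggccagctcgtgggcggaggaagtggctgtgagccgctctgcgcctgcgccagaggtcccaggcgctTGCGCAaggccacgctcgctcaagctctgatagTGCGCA
Tdrd12: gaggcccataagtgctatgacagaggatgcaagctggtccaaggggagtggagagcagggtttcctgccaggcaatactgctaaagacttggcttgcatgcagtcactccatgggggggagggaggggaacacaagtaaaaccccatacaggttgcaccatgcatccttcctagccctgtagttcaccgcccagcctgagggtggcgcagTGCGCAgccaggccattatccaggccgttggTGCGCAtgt
Mael: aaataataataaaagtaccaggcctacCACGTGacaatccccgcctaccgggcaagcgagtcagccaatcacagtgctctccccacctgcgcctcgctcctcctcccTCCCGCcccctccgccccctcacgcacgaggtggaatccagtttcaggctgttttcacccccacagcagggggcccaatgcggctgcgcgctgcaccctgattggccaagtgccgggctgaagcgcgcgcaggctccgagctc
Tdrd9: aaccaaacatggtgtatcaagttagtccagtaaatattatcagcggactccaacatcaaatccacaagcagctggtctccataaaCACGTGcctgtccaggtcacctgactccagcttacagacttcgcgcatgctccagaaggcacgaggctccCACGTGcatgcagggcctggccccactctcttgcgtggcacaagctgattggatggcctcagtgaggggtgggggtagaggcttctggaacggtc

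The core TGCGCA, which reads the same on both strands, stood at bases -39 to -34 and -6 to -1 before the start of Asz1 and at -40 to -35 and -9 to -4 before that of Tdrd12. It was searched because it was noticed on reading these windows, so its count is not independent of them. It occurred upstream of 4 of the 8 members, Asz1, Tdrd12, Tdrd5 and Piwil4, and in 6.43% of 32851 windows of the same length. A window with 2 or more copies made up 0.816% of all. Letters with a CpG are commoner where CpG is common: TGCGCA occurred in 12.3% of windows above the median of 6 CpG and in 1.39% of the others, and 7 of the 8 members lay above that median. The exception was Tdrd12, with 5 CpG. It had 2 windows, of which only the one farthest upstream was searched here.

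The E-box CACGTG, also the same on both strands, occurred upstream of Mael, Mov10l1, Tdrd1 and Tdrd9, against 6.02% of all windows and 9.09% of those above the median of CpG. Tdrd9 held 2 copies, at -165 to -160 and -95 to -90, and that of Tdrd1 stood closest to a start, at -11 to -6. TCCCGC, searched on both strands, occurred upstream of Mael and Tdrd5, against 16.9% of all windows and 32.9% of those above the median of CpG. Members that rose and members that did not pass thus both hold TGCGCA and CACGTG, while no match says only that the letters are not in the window. The 3 motifs do not overlap each other in these 8 windows.

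**Figure D1:**
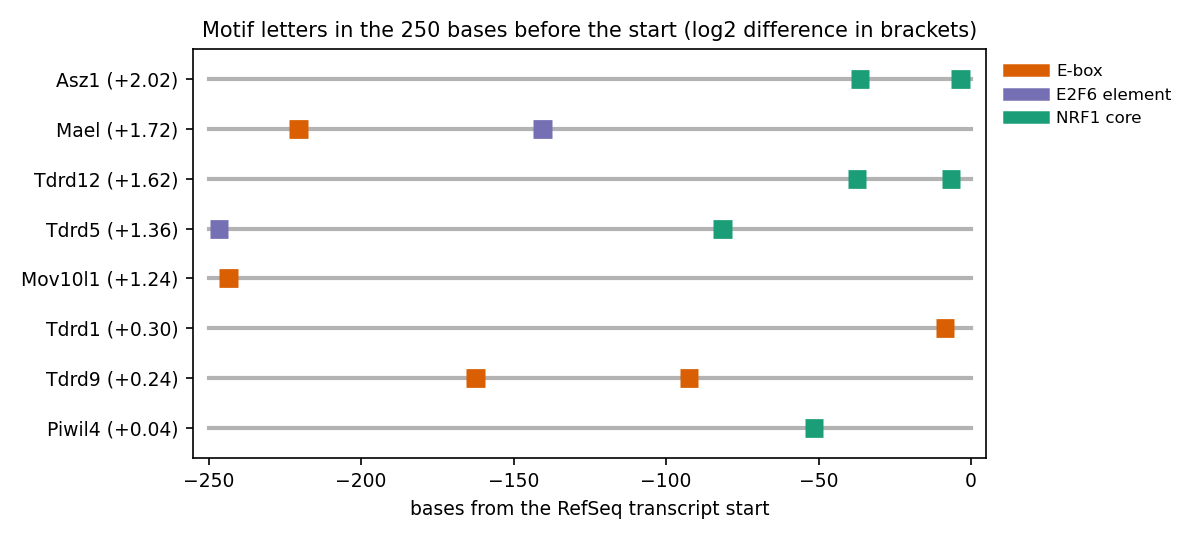
Motif letters in the 250 bases before the transcript start of 8 members, drawn to scale against the distance from the start in bases, with members ordered by their log2 difference (c-kit-positive minus c-kit-negative, in brackets). Asz1 and Tdrd12 each hold 2 copies of TGCGCA within 40 bases of the start, and the members below Mov10l1, which did not pass the test, hold motifs too.

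Neither PIWI gene among the members passed the test. Piwil2 encodes MILI, the cytoplasmic PIWI protein that cuts transposon RNA and starts piRNA amplification. It was at 5.41, 5.01 and 5.73 in c-kit-positive cells and at 4.35, 4.62 and 4.75 in c-kit-negative cells. The populations did not overlap, with a gap of 0.26 between the nearest arrays. The difference was 0.81 ± 0.20 (SE, 1.75-fold, adjusted p = 0.0512, limma). It passed without c-kit-positive replicate 2, the lowest of its population for this gene (adjusted p = 0.0270, limma), and it had adjusted p-values of 0.0816 to 0.161 in limma without any other array.

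Piwil4 encodes MIWI2, the nuclear PIWI protein that directs DNA methylation of transposons. Its values were 4.28, 4.37 and 4.16 in c-kit-positive and 3.96, 4.38 and 4.36 in c-kit-negative cells, which overlap. The difference of 0.04 had a 95% interval of -0.33 to 0.40 (adjusted p = 0.931, limma). Piwil4 and Tdrd1 were the 2 members whose mean level lay below 4.67, the first quartile of all genes, where array background compresses differences and no detection call says whether the RNA was measured. Within each array Piwil2 was set against Piwil4, as a measure of unequal change. The log2 ratio of Piwil2 to Piwil4 was higher by 0.77 in c-kit-positive cells without overlap of the arrays, with an exact permutation p of 0.1, the smallest that 3 against 3 arrays allow (0.1 after adjustment over 6 such pairs).

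**Figure D2:**
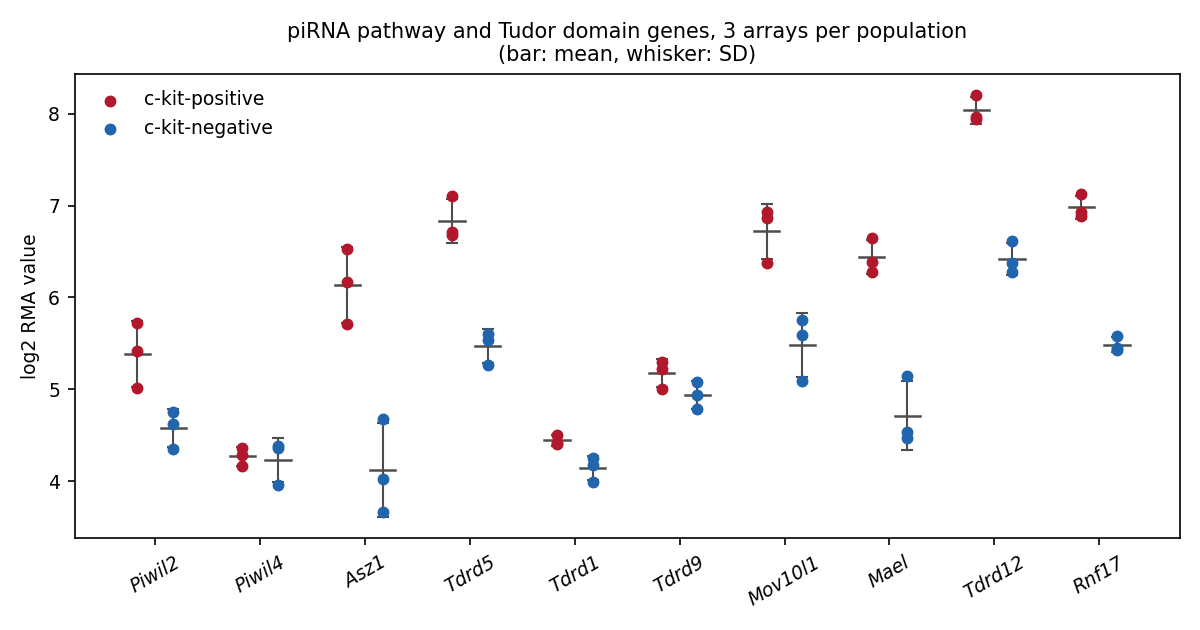
Log2 RMA value of each of the 10 members on each of the 6 arrays, c-kit-positive in red to the left of c-kit-negative in blue, with the mean as a bar and the SD as whiskers (n = 3). Asz1, Mael, Tdrd12, Rnf17, Tdrd5 and Mov10l1 separate by 0.62 to 1.33 between the nearest arrays, whereas Piwil4 and Tdrd9 overlap.

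The scaffold of the granule beside mitochondria showed the largest rise. Asz1 encodes GASZ, an ankyrin repeat protein of the outer mitochondrial membrane around which the granules of mouse germ cells assemble. It was at 6.53, 5.71 and 6.17 in c-kit-positive cells and at 4.67, 4.02 and 3.66 in c-kit-negative cells. All arrays of the first population lay above those of the second, by at least 1.04. The difference was 2.02 ± 0.29 (SE, 4.04-fold, adjusted p = 0.00429, limma), the twelfth highest of all genes as ranked by difference. It was also the member with the widest spread, with SDs of 0.41 and 0.51 in c-kit-positive and c-kit-negative cells (n = 3 each). Its c-kit-negative mean of 4.12 lay below 4.67, the first quartile of the mean levels of all genes, where array background compresses differences.

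Mael encodes maelstrom, a granule protein with an HMG box that is needed for transposon silencing in the mouse male germ line. It was at 6.28, 6.39 and 6.65 in c-kit-positive cells, against 4.54, 4.46 and 5.14 in c-kit-negative cells. The c-kit-negative replicate 3 was the high array of its population, and still 1.14 below the lowest c-kit-positive array. The difference was 1.72 ± 0.21 (SE, 3.30-fold, adjusted p = 0.00185, limma).

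Of the helicases among the members, Mov10l1 and Tdrd12 rose and Tdrd9 did not pass. Mov10l1 binds long piRNA precursors and feeds them to the nuclease that makes piRNAs. It was at 6.37, 6.93 and 6.86 in c-kit-positive cells, against 5.59, 5.09 and 5.76 in c-kit-negative cells, and the groups did not overlap. The difference was 1.24 ± 0.22 (SE, 2.36-fold, adjusted p = 0.0121, limma). Its relative Mov10, a helicase found in most cells, differed by 0.44 (adjusted p = 0.188, limma). The log2 ratio of Mov10l1 to Mov10 was higher by 0.80 in c-kit-positive cells, with no overlap and an exact permutation p of 0.1.

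Tdrd12, which joins a helicase-like domain to Tudor domains and serves piRNA amplification in the mouse, was at 7.94, 7.97 and 8.21 in c-kit-positive cells and at 6.61, 6.28 and 6.37 in c-kit-negative cells. The gap between the populations, 1.33, was the largest of the 10 members. The difference was 1.62 ± 0.15 (SE, 3.07-fold, adjusted p = 0.000479, limma). Tdrd9, the helicase that works with MIWI2, was at 5.22, 5.30 and 5.00 in c-kit-positive and 4.94, 5.08 and 4.79 in c-kit-negative cells. Its populations overlapped, and the difference of 0.24 had a 95% interval of -0.10 to 0.58 (adjusted p = 0.416, limma).

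Among the other Tudor proteins, Rnf17 and Tdrd5 rose. Rnf17 encodes a protein with a RING finger and Tudor domains that is known from mouse spermatids. It was at 7.13, 6.88 and 6.93 in c-kit-positive cells and at 5.45, 5.58 and 5.43 in c-kit-negative cells, the tightest groups among the risers. The difference was 1.50 ± 0.14 (SE, 2.82-fold, adjusted p = 0.000410, limma), the smallest adjusted p of the 10 members.

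Tdrd5 encodes a protein with LOTUS domains and a Tudor domain that is required for granule assembly in male mouse germ cells. It was at 6.71, 6.68 and 7.10 in c-kit-positive cells, against 5.60, 5.26 and 5.54 in c-kit-negative cells. The groups stood 1.08 apart at their nearest, and the difference was 1.36 ± 0.17 (SE, 2.58-fold, adjusted p = 0.00222, limma). Tdrd7, a relative with the same kinds of domain that is also used in the lens, differed by -0.48 (adjusted p = 0.217, limma). The log2 ratio of Tdrd5 to Tdrd7 was higher by 1.84 in c-kit-positive cells, with no overlap and an exact permutation p of 0.1, the largest unequal change among the 6 pairs.

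Tdrd1, the Tudor protein that binds the dimethylated arginines of MILI, was at 4.41, 4.42 and 4.51 in c-kit-positive cells and at 4.17, 4.25 and 3.995 in c-kit-negative cells. The groups did not overlap, but stood only 0.15 apart. The difference was 0.30 with a 95% interval of -0.0035 to 0.61 (adjusted p = 0.244, limma). Against Snd1, a Tudor protein of most cells that differed by -0.18, its log2 ratio was higher by 0.49 without overlap (exact permutation p = 0.1). Against Ago2, an Argonaute of the microRNA pathway, the ratio of Piwil2 was higher by 0.55 and that of Piwil4 lower, by -0.23, both with an exact permutation p of 0.1. The last of these became 0.02 when the 2 probe sets of Ago2 were averaged.

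Further genes of the pathway were read from a list of 24, of which 21 had a probe set. The list is broad and also holds other germ line genes, such as Nanos2 and Nanos3. Of the 21 measured, 4 rose and none fell, beside 2.71% and 4.7% of all genes. Of the differences, 19 were positive (90.5%, beside 61.1% over all genes), with a median of 0.43. Ddx4, the germ line helicase also known as vasa, was at 7.93, 7.61 and 7.50 in c-kit-positive cells and at 5.99, 6.04 and 5.95 in c-kit-negative cells (difference 1.69 ± 0.15, SE, adjusted p = 0.000389, limma). Morc1, an ATPase that represses transposons in the mouse male germ line, was at 6.46, 6.31 and 6.05 in c-kit-positive and 4.41, 4.70 and 5.07 in c-kit-negative cells (difference 1.55 ± 0.20, SE, adjusted p = 0.00245, limma). In both genes every c-kit-positive array lay above every c-kit-negative array.

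Stk31, a Tudor protein with a kinase-like domain, was at 5.56, 6.40 and 5.63 in c-kit-positive cells and at 4.14, 4.32 and 4.76 in c-kit-negative cells (difference 1.46 ± 0.26, SE, adjusted p = 0.0115, limma). Tex15, which acts with MIWI2 in transposon methylation in the mouse, was at 5.74, 6.33 and 6.48 in c-kit-positive cells and at 4.29, 4.87 and 5.37 in c-kit-negative cells (difference 1.34 ± 0.29, SE, adjusted p = 0.0285, limma). Tex15 had an adjusted p of 0.0853 and 0.0923 in limma without c-kit-positive replicate 2 or 3, and of 0.0725 and 0.0791 without c-kit-negative replicate 1 or 2. Pnldc1, the exonuclease that trims piRNA ends, had the smallest p of those that did not pass (difference 0.82, adjusted p = 0.0546, limma). The other 16 that did not pass had differences between -0.48 and 0.83, the lowest being that of Tdrd7, which is on this list too. Among the 16 was Piwil1, the PIWI protein of meiotic and later male germ cells. Its values were 4.46, 4.18 and 4.26 in c-kit-positive and 4.30, 4.32 and 4.26 in c-kit-negative cells.

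**Figure D3:**
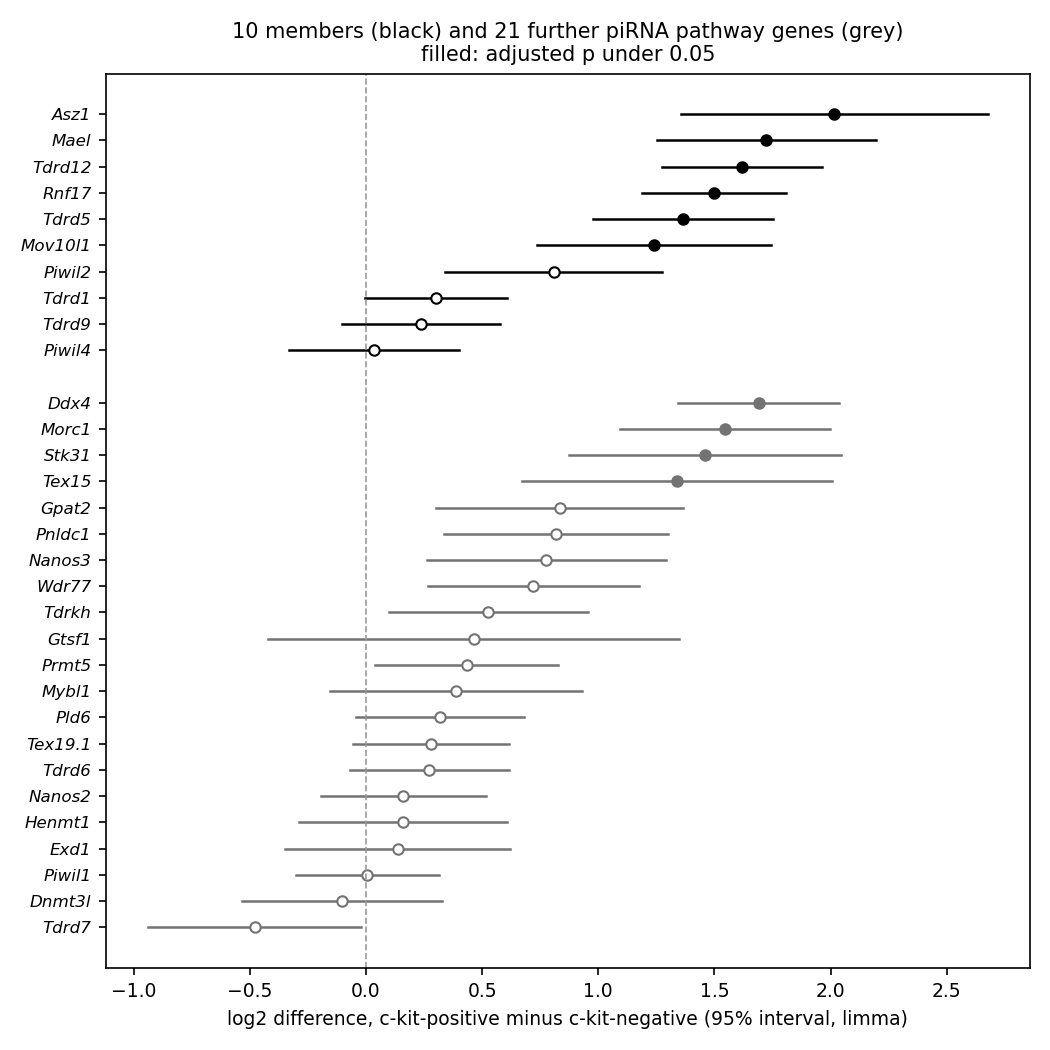
Log2 difference, c-kit-positive minus c-kit-negative, of the 10 members (black) and the 21 genes of the broad further list (grey). Lines give the 95% interval from limma, and symbols are filled where the adjusted p was under 0.05. In black 6 genes are filled, and in grey Ddx4, Morc1, Stk31 and Tex15.

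The arrays measured 20 Tudor domain genes with roles outside the germ line. None rose or fell in limma, 6 had an unadjusted p under 0.05 (as did 4196 of the 19937 genes in all), and the median difference was 0.05. Of the 20, 5 lay higher without overlap and 2 lower, beside 16.2% and 10.6% of all genes. Smndc1, a splicing factor, had the smallest p (difference 0.50, adjusted p = 0.0684, limma). Phf19, a Polycomb partner named after its value was seen, had the largest difference of the 20, at 6.62, 6.19 and 7.29 in c-kit-positive and 5.42, 5.18 and 6.15 in c-kit-negative cells (difference 1.12, adjusted p = 0.0815, limma), and passed only without c-kit-negative replicate 3 when 1 array was left out (adjusted p = 0.0482, limma). Of 14 genes of the Argonaute clade and the microRNA machinery 2 rose and 1 fell, with a median of 0.20. Over all genes 2.71% rose and 4.7% fell. Xpo5, which exports microRNA precursors, and Tnrc6c, a silencing partner of Argonautes, were higher by 0.71 and 0.71, and Prkra, a partner of Dicer, fell by 0.81. With 1 array left out, Xpo5 passed only without replicate 1 of either population, Tnrc6c only without c-kit-negative replicate 2, and Prkra only without replicate 1 of the c-kit-positive or replicate 3 of the c-kit-negative cells, with highest adjusted p-values of 0.0765, 0.102 and 0.0601 (limma). Whether the members differ from these lists as a group was not tested.

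Another list, of chromatin repressors of transposons, was measured for 16 genes, with a median of 0.10. Of the 16, 3 rose and none fell, beside 2.71% and 4.7% of all genes. The 3 that rose were the DNA methyltransferase Dnmt3b (difference 1.07, adjusted p = 0.0164, limma), the chromatin remodeller Hells (0.78, adjusted p = 0.0212, limma) and the histone methyltransferase Suv39h2 (0.67, adjusted p = 0.0310, limma). With 1 array left out Dnmt3b passed in 4 of 6 fits, missing without c-kit-negative replicate 1 or 3 (highest adjusted p = 0.0615, limma). Hells passed only without c-kit-negative replicate 1 (highest 0.0697) and Suv39h2 only without c-kit-positive replicate 1 (highest 0.0983). Of 10 genes of the repressor complex that includes E2F6 and MGA, none passed in limma, and 5 had an unadjusted p under 0.05 (against the same 4196 of 19937). L3mbtl2, a subunit of that complex, had the smallest p (difference 0.66, adjusted p = 0.0956, limma).

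Cell type markers moved between the same arrays, beside 2.71% of all genes that rose and 4.7% that fell. Of 23 markers of primordial germ cells outside the piRNA pathway 16 rose and none fell, led by Sycp3 (2.48), Dazl (1.85) and Prdm14 (1.94), a component of meiotic chromosomes, an RNA-binding protein and a factor of germ cell specification. Their mean level per array was 7.90 to 8.25 in c-kit-positive and 6.92 to 7.02 in c-kit-negative cells, and that of the 10 members was 5.96 to 6.13 and 4.90 to 4.99. The difference of these means was 1.09 for the germ cell markers and 1.08 for the members. Their part in the members' rise was not tested.

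Of 15 haematopoietic markers 5 rose and none fell, where 2.71% of all genes rose and 4.7% fell. The risers were Myb (1.77), Hlf (1.11), Rac2 (0.77) and, named after their values were seen, Cd48 (1.22) and Spn (0.60). With 1 array left out, Cd48 passed only without c-kit-positive replicate 2 and Spn in none of the 6 fits. Their mean level was 7.33 to 7.36 in c-kit-positive and 6.73 to 6.91 in c-kit-negative cells. All 16 endothelial markers fell, among them Kdr, Tek and Emcn, with mean levels of 5.87 to 6.13 in c-kit-positive and 8.59 to 8.68 in c-kit-negative cells. Of 12 macrophage markers 3 fell, Csf1r, Ctss and Tyrobp. With 1 array left out, Tyrobp passed in none of the 6 fits. Ctss passed in 5, missing without c-kit-positive replicate 1 at an adjusted p of 0.0529 in limma. Of 7 erythroid markers 3 fell, the globins Hba-x, Hbb-y and Hbb-bh1. The other 4 did not pass, with differences between -0.08 and 0.73, the highest being that of Klf1. Of 10 mesenchymal markers 7 fell, with Prrx1, Pdgfra and Dcn first. Of 13 genes listed as gonadal or mesonephric 2 fell, Cdh2 and Osr1, and 2 rose, Cdh1 and, named after its value was seen, Epcam. The remaining 9 of that list did not pass, with differences between -0.41 and 0.51. Which cells the 2 risers came from was not tested. The part of these cells in the members' values was not tested either.

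**Figure D4:**
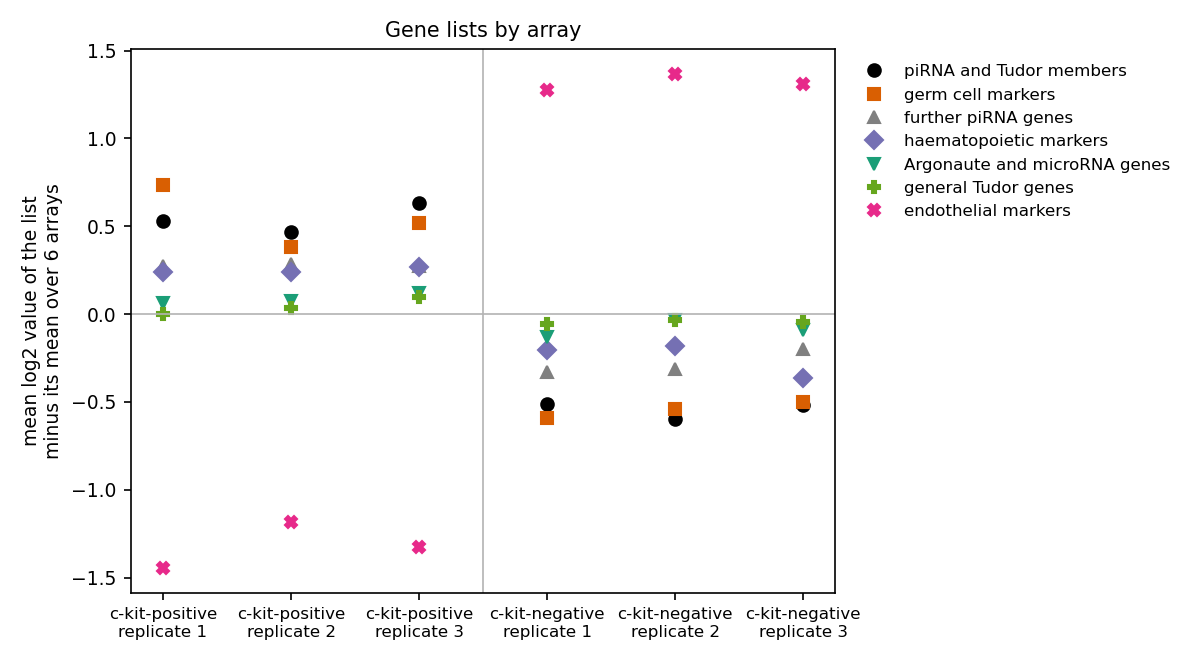
Mean log2 value of 7 gene lists on each array, less the list's mean over the 6 arrays, with the c-kit-positive arrays on the left. The members (black circles) and the germ cell markers (orange squares) lie above 0 on all 3 c-kit-positive arrays. They lie below 0 on all 3 c-kit-negative arrays. The same holds for the further piRNA genes, the haematopoietic markers and the Argonaute and microRNA genes. The endothelial markers lie the other way.

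Among named genes outside these lists, the 5 whose values followed the mean of the 10 members most closely over the 6 arrays were Lncenc1, Suz12, Noa1, Ppwd1 and Smc1b, with Pearson's r between 0.994 and 0.997. This is a measure of likeness only, since the 6 points are 2 populations and any gene that separates them evenly scores high. Smc1b, a cohesin subunit of meiosis, was at 6.96, 6.54 and 7.14 in c-kit-positive and 4.82, 4.84 and 4.92 in c-kit-negative cells. Lncenc1, a long noncoding RNA of embryonic stem cells, was higher by 1.78, and Suz12, a subunit of the Polycomb complex PRC2, by 0.49 (adjusted p = 0.0490, limma, and past the threshold in none of the 6 fits with 1 array left out). Noa1 and Ppwd1 differed by 0.37 and 0.35 without passing the test (adjusted p = 0.123 and 0.139, limma).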

How the data were processed

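Total RNA of 6 sorted samples was measured on 1 array each, after amplification of 5 ng with a whole-transcript kit, per the labels' protocols, a step that can distort ratios between transcripts. The deposited values are log2 values that the authors made with RMA, per the submitters' processing notes; the sources used here give neither its version nor its settings. No depth or detection call comes with them, and precision is limited by the number of arrays. Array background compresses the differences of dim genes.

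Of 34760 probe sets, 21640 had 1 gene symbol in the platform annotation, 1321 had several and 11799 were not listed. By Entrez identifier 21553 matched the RefSeq gene table. For 954 genes with several probe sets the one with the highest mean was used. The test was limma's (version 3.58.1, run in R 4.3.3; two-sided, with lmFit and eBayes, without filter or block), with Benjamini-Hochberg adjustment over 19937 genes; the code was tested on simulated data. The members and the 12 other gene lists were chosen with earlier results of these data known. All members are named, as are further pathway genes past the threshold with the next one, up to 3 genes of each other list, the relatives in 6 pairs, the sort genes and the 5 genes most alike. Alternatives were other scalings, filters on dim genes, other variance models, thresholds, averaged probe sets, a replicate block and leaving out each array. Same-numbered arrays were checked for shared deviations from their group means, with correlations of 0.00071, 0.024 and 0.059, so the numbers were not taken as pairs. The upstream windows were read from a table of RefSeq sequences on GRCm38.p6, and RefSeq starts were not matched to the probes.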

Additional observations from a re-analysis of the deposited data

How the results depend on the processing

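Of the 6 members that rose, all 6 passed with every single array left out, and the count of members that rose was 6 to 7 in those fits, Piwil2 being the seventh without c-kit-positive replicate 2. Without variance moderation 2 members and 1 further pathway gene rose, among 66 higher and 216 lower genes overall. At an adjusted p under 0.01 the members that rose numbered 5, without Mov10l1, and the further genes that rose numbered 2, with 131 higher and 499 lower genes, and with a minimum of 2-fold added to the main threshold 215 genes were higher and 615 lower. Leaving out the dimmest 50 percent of genes took out 6 members, among them Asz1 and Mael. It left 4 members and 1 further gene that rose. With 1 array left out, 276 to 369 genes were higher and 670 to 745 lower. The replicate block gave 476 higher and 879 lower genes, 7 members that rose and 6 further genes, the seventh member being Piwil2 at an adjusted p of 0.0496 (limma). Piwil2 also passed with an intensity trend, with averaged probe sets and without the dimmest 30 percent of genes. It missed with median centring, quantile normalization and array weights (adjusted p = 0.0531, 0.0641 and 0.0582, limma), and without variance moderation. Piwil4 turned to -0.036 under quantile normalization and ran from -0.10 to 0.11 with 1 array left out, Piwil1 turned to -0.060 under quantile normalization and -0.0047 with array weights and ran from -0.073 to 0.066, Ptprc ran from -0.51 to 0.087, and the ratio of Piwil4 to Ago2 turned to 0.015 with averaged probe sets. The cause was not tested. The number of arrays limits what could be called.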
